A study of Mus musculus with 24 samples.

Results

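Cbr2, P3h2, Slco2b1, Folr2 and F13a1 were described together as genes proposed to be newly expressed in liver macrophages when stellate cells lack the ligands GDF2 and BMP10 or hematopoietic cells lack the signal transducer SMAD4. They were taken by their symbols from all 4 count tables, and are 5 of the 48574 gene symbols (48820 entries) listed there. The choice rested on their levels in the macrophage libraries, so those levels are given as a description and only the values in endothelial cells (ECs) and whole livers were tested. Whole livers contain macrophages, so the tests there are not wholly free of that choice. As described, 4 of the 5 genes were higher in mutant macrophages and 1 was lower. Cbr2, P3h2, Slco2b1 and F13a1 were low in control macrophages, from 0 to 7.58 CPM (CPM, counts scaled to the size of each library with TMM factors). P3h2 was already detected in the Smad4 control libraries, which also held endothelial signal whose part was not tested. All 4 were higher in every library of the matching mutant. Folr2 went the other way: it was among the abundant transcripts of control macrophages and was about 25-fold lower in both mutants (25.4-fold and 25.9-fold by group means).

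The study sequenced RNA of mouse liver in 24 libraries, 3 in each of 8 groups, all from C57BL/6 mice by the labels (C57BL/6J in the methods). In HSC-KO mice (Bmp9/10-HSC-KO in the labels, after the older name of GDF2), which were homozygous for floxed Gdf2 and for floxed Bmp10, Lrat-Cre removes both ligand genes in hepatic stellate cells (HSCs). Macrophages (sorted by the gate CD45+Ly6C-F4/80+CD64+) and ECs (CD45-CD31+) came from HSC-KO mice and their controls at 8 to 10 weeks of age, and whole livers from such mice at 12 weeks. Macrophages were also sorted at 8 to 10 weeks from Smad4 cKO mice (Smad4 fl/fl Vav1-Cre, Smad4FF cKO in the labels) and from Smad4 fl/fl mice (Smad4FF). Vav1-Cre acts in hematopoietic cells at large, so Smad4 was not removed from macrophages alone, while in HSC-KO mice the floxed genes are those of the ligands. For 3 of the mice the labels list ECs as well as macrophages, so those libraries are not wholly independent. The libraries held 60911527 to 110879155 counts, and 17480 to 21597 genes had a count. Gdf2 fell from 720 to 2036 counts in control livers to 178 to 287 in HSC-KO livers, Bmp10 from 180 to 362 to 7 to 22, and Smad4 from 3185 to 4416 counts in control macrophages to 1289 to 1669 in Smad4 cKO macrophages. The 12 pan-macrophage markers stayed detected in every macrophage group, but their sums were lower in both mutants without overlap. They were 37682 to 39425 CPM in controls and 30261 to 34734 CPM in HSC-KO macrophages. In the Smad4 set they were 41695 to 50359 CPM in controls and 28943 to 35582 CPM in Smad4 cKO macrophages.

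GDF2 and BMP10 are circulating ligands of the BMP family, which bind the receptor ALK1 on endothelial cells and Kupffer cells and act through SMAD proteins, with SMAD4 as the shared partner in transcription. Kupffer cells are the resident macrophages of the liver sinusoid and keep their identity through signals from the neighbouring stellate cells, hepatocytes and endothelium. The 5 genes have no common pathway. Cbr2 encodes a carbonyl reductase, P3h2 a prolyl 3-hydroxylase that modifies collagen chains, Slco2b1 an organic anion transporter of the plasma membrane, Folr2 the folate receptor beta of macrophages, and F13a1 the catalytic A subunit of coagulation factor XIII, a transglutaminase that crosslinks fibrin.

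All 5 are protein-coding genes on the minus strand of GRCm38 (GENCODE vM21). Cbr2 spans chr11:120729489-120732114, P3h2 chr16:25959288-26105784, Slco2b1 chr7:99657804-99711340, Folr2 chr7:101839988-101857194 and F13a1 chr13:36867178-37050244. Since 4 of the genes rose together in mutant macrophages and 1 fell, their promoters are shown as the 250 bases before the start, 5′ to 3′ on the minus strand, from RefSeq on GRCm38.p6. 4 of the 5 genes were matched in the promoter table, with 1 entry for Cbr2, 3 for Slco2b1, and 2 each for Folr2 and F13a1. P3h2 had no entry. The windows printed are chr11:120732022-120732271 for Cbr2, chr7:99711341-99711590 for Slco2b1, chr7:101857191-101857440 for Folr2 and chr13:37049214-37049463 for F13a1, the last chosen for its match. The starts are those of RefSeq, and the Cbr2 and Folr2 windows reach into the GENCODE spans given above. The printed F13a1 window lies wholly inside the F13a1 span. Capitals mark AGGAAGT, the sequence bound by PU.1 and other ETS factors.
Cbr2: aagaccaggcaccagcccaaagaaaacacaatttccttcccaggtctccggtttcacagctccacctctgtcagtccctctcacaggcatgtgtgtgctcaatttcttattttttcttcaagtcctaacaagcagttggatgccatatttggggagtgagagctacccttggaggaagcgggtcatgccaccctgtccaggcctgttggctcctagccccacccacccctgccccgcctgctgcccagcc
Slco2b1, first entry: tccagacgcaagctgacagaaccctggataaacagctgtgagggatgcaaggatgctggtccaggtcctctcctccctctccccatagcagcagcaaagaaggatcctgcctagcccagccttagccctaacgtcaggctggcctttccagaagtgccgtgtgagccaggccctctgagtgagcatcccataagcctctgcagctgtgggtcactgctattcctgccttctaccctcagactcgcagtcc
Folr2, first entry: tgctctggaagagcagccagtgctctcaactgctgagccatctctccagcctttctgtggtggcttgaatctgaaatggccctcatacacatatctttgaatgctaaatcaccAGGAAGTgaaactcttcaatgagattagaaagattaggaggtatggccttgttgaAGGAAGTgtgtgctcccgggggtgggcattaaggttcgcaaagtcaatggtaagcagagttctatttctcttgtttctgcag
F13a1, second entry: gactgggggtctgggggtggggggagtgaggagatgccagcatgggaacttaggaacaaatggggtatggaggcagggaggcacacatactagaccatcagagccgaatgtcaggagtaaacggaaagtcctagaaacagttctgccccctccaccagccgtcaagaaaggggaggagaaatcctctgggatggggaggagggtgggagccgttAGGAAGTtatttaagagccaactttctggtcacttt
The windows were searched on both strands for AGGAAGT, for the palindromic SMAD box GTCTAGAC, for the GC-rich SMAD box GGCGCC and for the MAF half-site TGCTGAC. The first Folr2 entry held AGGAAGT at bases -137 to -131 and at -82 to -76 before the start, and the second F13a1 entry held it at -36 to -30, all on the gene's strand. No window of Cbr2 or Slco2b1 held any of these motifs, and the other entries of Folr2 and F13a1 held none either. Of the 32851 mouse promoters of the same length, 7.69% held AGGAAGT, 0.167% GTCTAGAC, 9.59% GGCGCC and 3.81% TGCTGAC. These matches are a description of letters and not of binding.

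In HSC-KO macrophages, the reductase Cbr2 stood at 450.4, 453 and 504 CPM in the 3 libraries, against 1.65, 3.58 and 4.06 CPM in control macrophages. The groups were far apart and the mean was 152-fold higher. In Smad4 cKO macrophages Cbr2 reached 1177, 978 and 1436 CPM, against 4.59, 7.58 and 4.59 CPM in Smad4 fl/fl controls, a 214-fold difference between the means. It was the most abundant of the 5 genes per kilobase of exon in both mutants (354 ± 22.7 CPM per kb in HSC-KO and 902 ± 173 in Smad4 cKO macrophages, SD, n = 3).

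The anion transporter Slco2b1 had 362, 369 and 242 CPM in HSC-KO macrophages and 1.15, 0.870 and 0.516 CPM in their controls. No control library came near the mutants, and the mean was 384-fold higher. In Smad4 cKO macrophages it had 151, 122 and 163 CPM, against 1.26, 0.977 and 3.61 CPM in controls, a 74.5-fold difference. The log2 fold change was 8.61 (SE 0.35) in HSC-KO and 6.22 (SE 0.55) in Smad4 cKO macrophages. Without Smad4 control replicate 3, the library with the highest control value, the latter was 7.01.

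P3h2, the collagen hydroxylase, came closest to a switch from nothing in the HSC-KO comparison. Of the 3 control macrophage libraries, 1 had 9 counts (0.107 CPM) and the other two had none, whereas HSC-KO macrophages had 38.0, 21.8 and 18.0 CPM. The fitted log2 fold change of 9.35 (SE 0.82) leans on those 9 counts, being 14.11 without control replicate 1. In the Smad4 comparison P3h2 was already detected in the control libraries, at 1.36, 0.977 and 2.00 CPM, and stood at 5.19, 7.26 and 4.98 CPM in Smad4 cKO macrophages. The groups did not overlap there either, but the means differed only 4.02-fold (log2 fold change 2.01, SE 0.32).

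P3h2 and Slco2b1 are also endothelial transcripts, and the Smad4 libraries held more endothelial signal than the HSC-KO set. The sum over 12 pan-endothelial markers was 58.1 to 333 CPM in the macrophages of HSC-KO mice and their controls and 595 to 2142 CPM in the Smad4 libraries, where control ECs had 15379 to 16151 CPM. As a share of control ECs this was 13.5%, 3.76% and 12.6% in Smad4 fl/fl control macrophages and 13.1%, 12.8% and 10.3% in Smad4 cKO macrophages. That share of the EC level of P3h2 comes to 0.805 to 2.89 CPM in the controls, a range that spans the measured values, and to 2.21 to 2.81 CPM in Smad4 cKO macrophages, which had 4.98 to 7.26 CPM. For Slco2b1 the same share comes to 1.44 to 1.82 CPM in Smad4 cKO macrophages, beside measured values of 122 to 163 CPM. In HSC-KO macrophages it comes to at most 0.169 CPM of P3h2. What the endothelial signal adds to P3h2 in the Smad4 libraries was not tested further.

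F13a1, the factor XIII subunit, had 40.1, 32.5 and 22.9 CPM in HSC-KO macrophages and 0.215, 0.278 and 0.659 CPM in controls, 82.9-fold apart. The lowest mutant library lay well above the highest control. In Smad4 cKO macrophages it had 3.37, 1.26 and 6.99 CPM, against 0.589, 0.989 and 0.172 CPM, and the groups came close without overlapping. The mutant libraries varied widely, and the log2 fold change was 2.75 (SE 0.77).

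Folr2 had 1944, 1963 and 1963 CPM in control macrophages and 86.0, 43.7 and 102 CPM in HSC-KO macrophages. In the Smad4 comparison it had 1763, 2213 and 1465 CPM in controls and 62.9, 75.7 and 71.8 CPM in Smad4 cKO macrophages. The log2 fold changes were -4.60 (SE 0.34) and -4.68 (SE 0.19), and every mutant library lay below every control library. Folr2 was thus the only one of the 5 with a lower level in mutant macrophages, although at 49.9 ± 19.5 CPM per kb of exon (SD, n = 3) it was still about as abundant in HSC-KO macrophages as Slco2b1, with 54.5 ± 11.9.

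**Figure D1:**
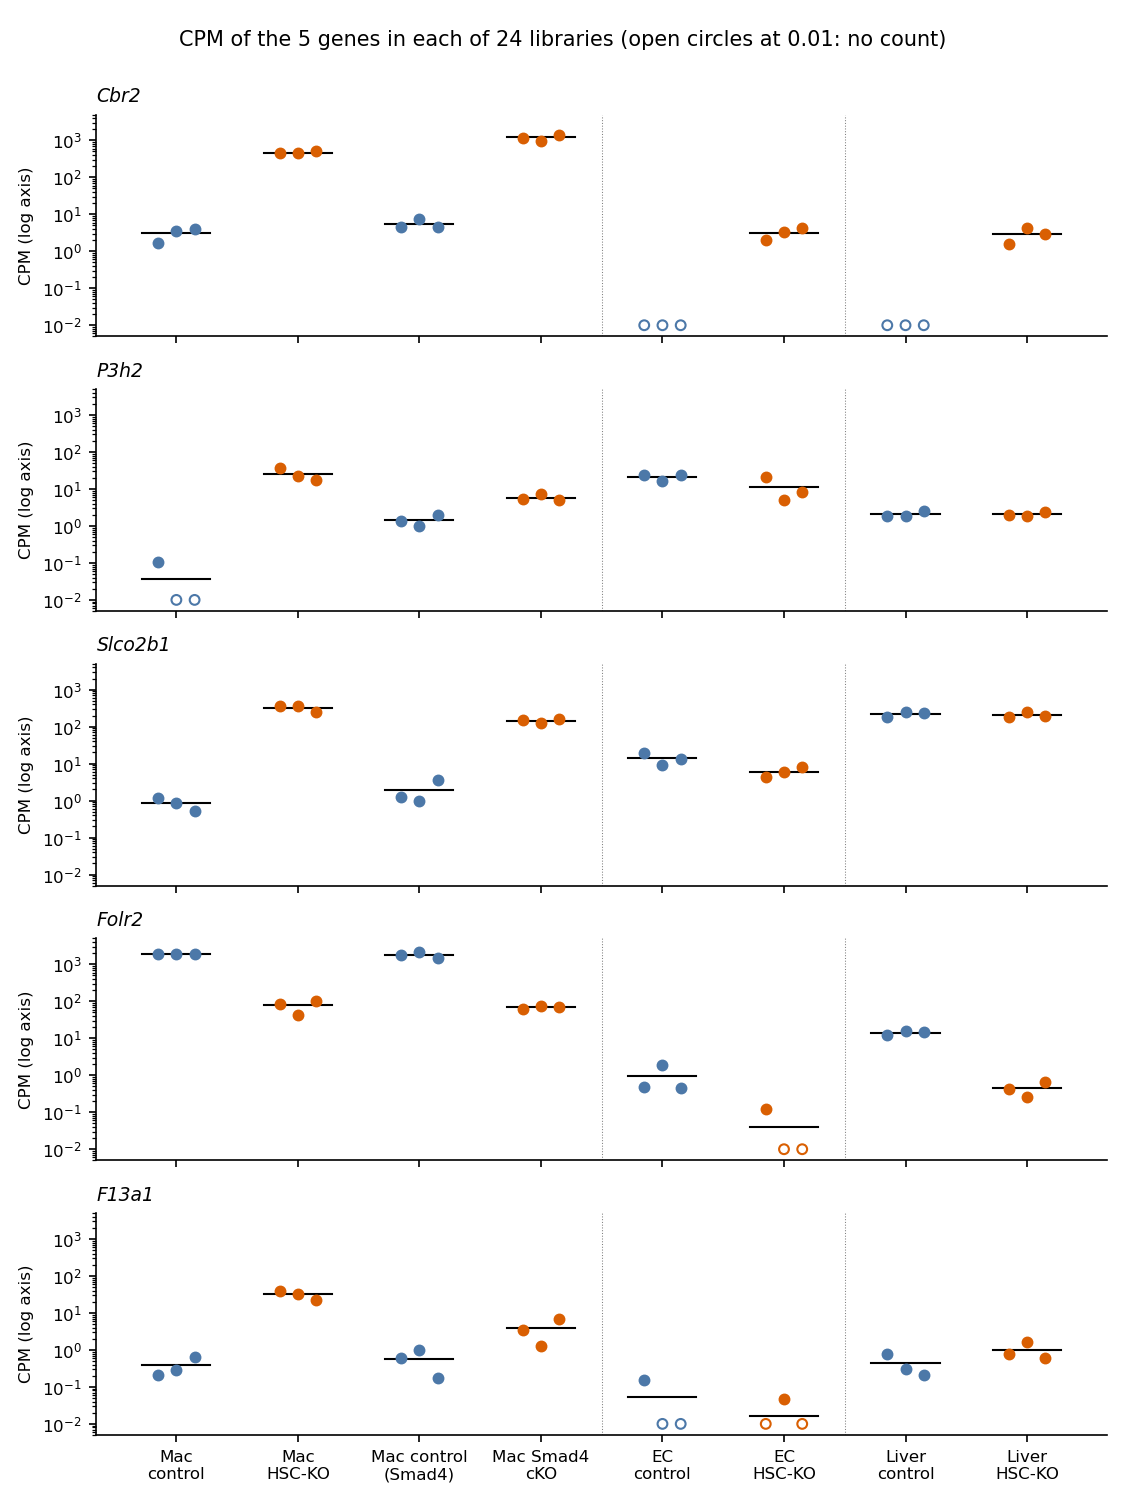
CPM (log axis) of each gene in each of the 24 libraries. Filled circles are libraries, open circles at 0.01 are libraries with no count, black lines are group means, blue marks controls and orange mutants. Cbr2, P3h2, Slco2b1 and F13a1 are higher in all mutant macrophage libraries, and Folr2 is lower in all of them.

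In both macrophage comparisons the CPM ranges of the groups did not overlap for any of the 5 genes, with 4 higher and 1 lower in the mutants. Over all genes tested, ranges without overlap were found for 18.6% (higher) and 21.8% (lower) in the HSC-KO and 14.6% and 14.7% in the Smad4 comparison, and since the genes were chosen on these libraries nothing is read from their count. The gains differed in size between the 2 mutants, side by side: 152-fold and 214-fold for Cbr2, 384-fold and 74.5-fold for Slco2b1, 724-fold and 4.02-fold for P3h2, and 82.9-fold and 6.64-fold for F13a1 (HSC-KO first, each against its own controls). Cbr2 was the only one with the higher mutant level in Smad4 cKO macrophages. These differences between the mutants were not tested. In the Smad4 controls P3h2 was at 0.977 to 2.00 CPM, within the 0.805 to 2.89 CPM that their endothelial share comes to. The part of that share in the 4.02-fold difference was not tested.

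Cell type markers moved in the macrophage libraries as well. All 10 Kupffer cell markers were lower in both comparisons, with summed levels of 31354 to 32481 CPM in controls and 73.3 to 322 CPM in HSC-KO macrophages, and of 27278 to 34923 and 1281 to 1504 CPM in the Smad4 set. Of the monocyte markers, 5 of 11 tested rose and 3 fell in HSC-KO macrophages, where 6.32% of all genes rose and 5.34% fell. In Smad4 cKO macrophages 1 of 12 rose and 2 fell, where 2.76% of all genes rose and 2.67% fell. Cx3cr1, the fractalkine receptor, rose in both, from 25.1 to 1665 CPM and from 10.5 to 731 CPM, while Plac8 and Itgal fell in both. The whole monocyte list summed to 1189 to 1288 CPM in controls and 1602 to 2329.7 CPM in HSC-KO macrophages, and to 928 to 1205 and 1343 to 1731 CPM in the Smad4 set, with median log2 fold changes of -0.46 and -0.27. Lymphocyte, neutrophil and dendritic markers summed to 16.2 to 27.2 CPM in controls and to 47.8 to 135 CPM in the HSC-KO libraries, and to 76.7 to 146 and 63.3 to 213 CPM in the Smad4 set. Their part in the gains was not tested. Hepatocyte markers summed to 3437 to 4641 CPM in controls and to 4757 to 5880.2 CPM in the HSC-KO libraries, against 152813 to 187266 CPM in control livers. In the Smad4 set they summed to 1506 to 1827 CPM in controls and to 2907 to 5297 CPM in Smad4 cKO macrophages. Slco2b1 had 242 to 369 CPM in HSC-KO and 122 to 163 CPM in Smad4 cKO macrophages, beside 178 to 247 CPM in control livers. The part of hepatocyte RNA in the Slco2b1 values was not tested.

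Cbr2 was the one gene of the 5 that passed the test upward outside the macrophages. Control ECs had no Cbr2 count in any library, whereas HSC-KO ECs had 210, 267 and 394 counts (1.96, 3.23 and 4.14 CPM). Every HSC-KO library was above every control, at least 75.3-fold higher in the mean when the controls were set to 3 counts (adjusted p = 8.0e-04, edgeR's quasi-likelihood test with Benjamini-Hochberg adjustment over all genes of the table). Control livers likewise had 0 counts in 3 libraries, and HSC-KO livers 102, 317 and 186 counts (1.58, 4.35 and 3.00 CPM). This was at least 64.6-fold higher (adjusted p = 0.0065, edgeR). In both tissues Cbr2 passed the filter on low counts through the HSC-KO libraries alone. Without that filter its adjusted p was 4.6e-04 in ECs and 0.0085 in livers (edgeR). With 0 counts in all controls, the difference between the EC and the liver effect on Cbr2 could not be estimated.

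How these Cbr2 levels stood to the macrophage content of the samples was read from the 12 pan-macrophage markers. HSC-KO ECs had 0.663% of the Cbr2 level of HSC-KO macrophages and 0 to 0.0689% of the level of each pan-macrophage marker (median 0.0217%). The pan-macrophage sum was lower in HSC-KO ECs, at 6.64 to 9.09 CPM with Fcgr1 at 0, than in control ECs, at 49.5 to 64.9 CPM, and 7 of the 11 markers tested fell. The monocyte markers went the other way, with sums of 17.7 to 48.2 CPM in control ECs and 93.7 to 205 CPM in HSC-KO ECs, where 3 of the 7 tested rose and 1 fell. Over all genes of the EC comparison 7.68% rose and 6.01% fell. What macrophages or monocytes add to Cbr2 in these libraries was not tested. In HSC-KO livers the Cbr2 level was 0.634% of that in HSC-KO macrophages, inside the range of the pan-macrophage markers there (0.328% to 1.32%, median 0.602%). In bulk libraries, fewer cells of a type and less RNA per cell cannot be told apart.

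**Figure D2:**
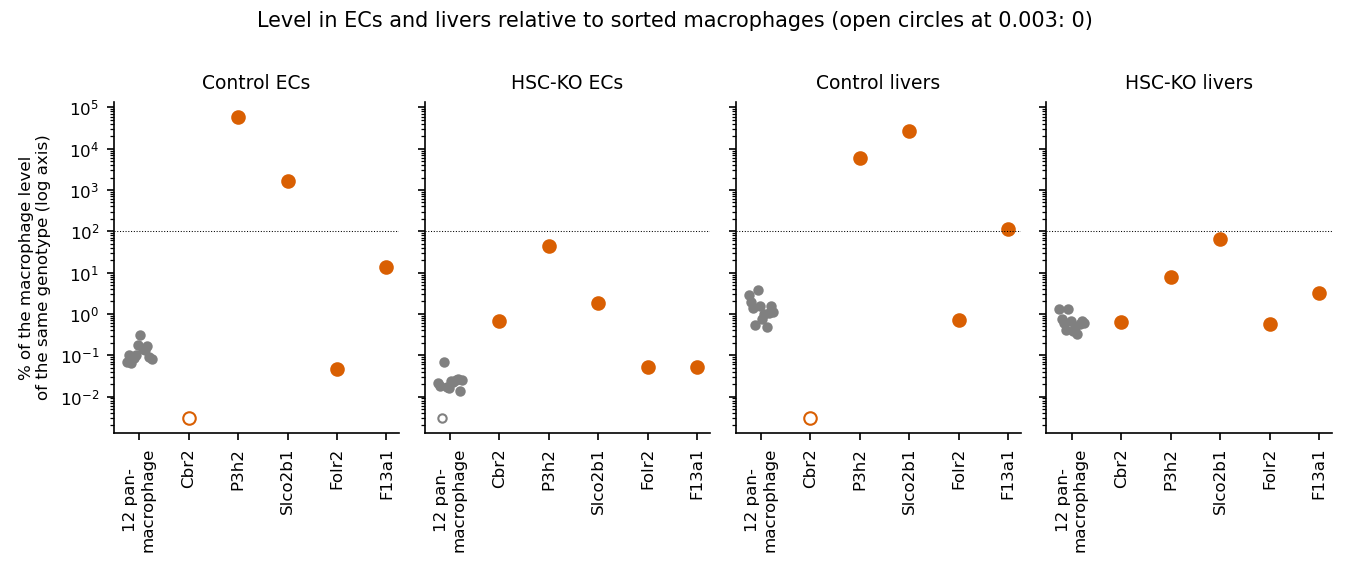
Mean level in ECs and livers as a percentage of the mean level in macrophages of the same genotype (log axis), for the 12 pan-macrophage markers (grey) and the 5 genes (orange). Open circles at 0.003 stand for 0 and the dotted line is 100%. In HSC-KO ECs Cbr2 (0.663%) lies above all the markers (0 to 0.0689%), and in HSC-KO livers (0.634%) among them.

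Slco2b1 was abundant in the liver irrespective of genotype. It had 178, 247 and 238 CPM in control livers and 188, 247 and 194 CPM in HSC-KO livers. The groups overlapped, with a log2 fold change of -0.02 (95% interval -0.45 to 0.41, adjusted p = 0.98, edgeR). In control ECs it had 19.1, 9.08 and 13.5 CPM and in HSC-KO ECs 4.44, 5.81 and 7.96 CPM. The EC groups did not overlap, and Slco2b1 fell by 1.22 on the log2 scale (SE 0.32, 95% interval -1.96 to -0.47, adjusted p = 0.034, edgeR). Thus the gene with a rise in macrophages of these mice was lower in their ECs. The EC call was narrow: it was lost without EC control replicate 1 or 3 or without EC HSC-KO replicate 1 or 2 (adjusted p = 0.076 to 0.11, edgeR). It was also lost with the replicate block (adjusted p = 0.061, edgeR) and with library size alone (adjusted p = 0.10, edgeR). The adjusted p ran from 0.0021 to 0.11 over all alternatives.

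P3h2 was highest in ECs among the control samples, with 23.7, 16.4 and 24.1 CPM in control ECs and no more than 0.107 CPM in the control macrophages of the same cross. HSC-KO ECs had 20.8, 5.14 and 8.16 CPM. The first of these lay among the controls and the others below them, and the log2 fold change of -0.95 did not pass the test (SE 0.47, 95% interval -2.03 to 0.14, adjusted p = 0.21, edgeR). Without EC HSC-KO replicate 1 it was -1.70 with an adjusted p = 0.0066 (edgeR). HSC-KO macrophages (25.9 ± 10.6 CPM, SD, n = 3) reached the level of control ECs (21.4 ± 4.31 CPM), and the ranges overlapped. In livers P3h2 had 1.88, 1.81 and 2.55 CPM in controls and 1.95, 1.85 and 2.45 CPM in HSC-KO mice, which overlapped, with a log2 fold change of 0.05 (95% interval -0.61 to 0.72, adjusted p = 0.97, edgeR).

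Folr2 was low in ECs, with 0.471, 1.86 and 0.460 CPM in controls and 0.121, 0 and 0 CPM in HSC-KO ECs. The groups did not overlap, but with 13 counts in all 3 HSC-KO libraries the log2 fold change of -4.45 was imprecise (95% interval -7.66 to -1.23, adjusted p = 0.060, edgeR). It passed with DESeq2 (-4.52, adjusted p = 0.0015) and in edgeR without EC HSC-KO replicate 1 (adjusted p = 0.011), which leaves HSC-KO libraries without a count. Control livers had 1083, 1043 and 1093 counts of Folr2 and HSC-KO livers 28, 19 and 40 counts (14.1 ± 2.02 against 0.446 ± 0.193 CPM, SD, n = 3). Every HSC-KO liver was far below the controls, and Folr2 fell by 4.94 on the log2 scale (SE 0.35, 95% interval -5.76 to -4.12, adjusted p = 9.3e-04, edgeR). The pan-macrophage markers also moved in these livers, with 5 of 12 lower, where 1.45% of all genes were. Their sums were 389 to 569.9 CPM in controls and 133 to 232 CPM in the mutants. Relative to macrophages of the same genotype, Folr2 stood at 0.722% in control and 0.578% in HSC-KO livers, within the ranges of the markers (0.475% to 3.90% and 0.328% to 1.32%).

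F13a1 was barely detected in ECs, with 15, 0 and 0 counts in controls and 0, 4 and 0 counts in HSC-KO ECs, and was left out of the EC test by the filter on low counts. Livers had 0.775, 0.307 and 0.211 CPM in controls and 0.788, 1.67 and 0.597 CPM in HSC-KO mice. The groups overlapped, and the log2 fold change of 1.30 did not pass the test (95% interval -0.22 to 2.81, adjusted p = 0.49, edgeR). With 16 to 122 counts a library, a change of that size was not resolved here.

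**Figure D3:**
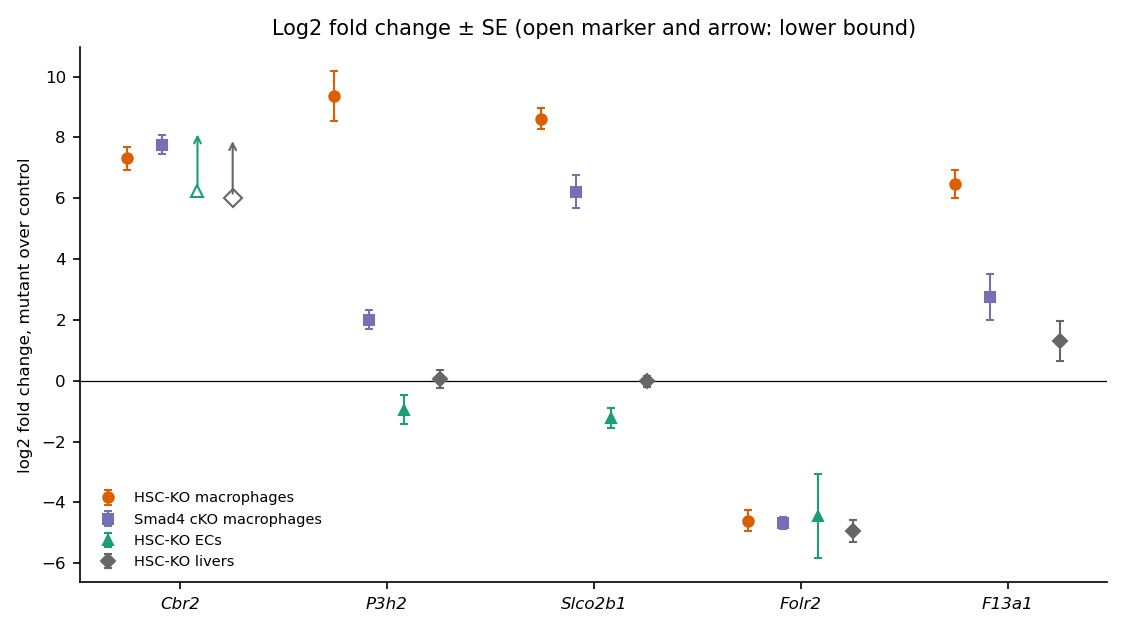
Log2 fold change of mutant over control for the 5 genes in 4 comparisons, with SE bars from edgeR. Open markers with arrows are lower bounds for Cbr2, which had no count in control ECs and livers, and F13a1 was not tested in ECs. Slco2b1 is at 8.61 and 6.22 in mutant macrophages, at -1.22 in HSC-KO ECs and at -0.02 in HSC-KO livers.

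Of the 4 genes tested in ECs, 2 met the criterion for a differentially expressed gene (DEG, meaning a change of over 1 on the log2 scale in either direction at an adjusted p under 0.05), Cbr2 upward and Slco2b1 downward. Over all genes of the EC comparison 13.7% did so, 7.68% upward and 6.01% downward. Of the 5 tested in livers, 2 were DEGs, Cbr2 upward and Folr2 downward, where 2.48% of all genes were (1.03% upward and 1.45% downward). Since Cbr2 entered these tests through the HSC-KO libraries alone, the counts of genes called are not read against those shares. Ranges without overlap were found for 3 of the 4 genes in ECs, where 21.4% of all genes were higher and 18.9% lower without overlap, and for 2 of 5 in livers, where the shares were 6.89% and 13.1%. These counts are not read against the shares either. Cbr2 entered through the HSC-KO libraries, and Folr2 entered the EC test through the control libraries (13, 0 and 0 counts in HSC-KO ECs). When the EC effect was set against the liver effect in one model, none of the 4 genes that could be estimated was a DEG by edgeR, where 6.48% of all genes were. The differences were -0.96 for P3h2 (adjusted p = 0.39), -1.16 for Slco2b1 (adjusted p = 0.11), 0.58 for Folr2 (adjusted p = 0.91) and -3.03 for F13a1 (adjusted p = 0.44). Only Slco2b1 had an unadjusted p under 0.05 in edgeR, and with DESeq2 its adjusted p was 0.043. Leaving out single libraries changed these calls: without EC control replicate 2 Slco2b1 passed (-1.38, adjusted p = 0.048, edgeR), and without EC HSC-KO replicate 1 P3h2 passed (-1.73, adjusted p = 0.019, edgeR). The difference for Folr2 turned to -4.20 without EC HSC-KO replicate 1, and that for F13a1 to 2.09 without EC control replicate 1.

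Ordered by group mean, each gene had its own profile over the 8 groups. Cbr2 was highest in Smad4 cKO macrophages, then in HSC-KO macrophages, and after those at 5.59 CPM in Smad4 fl/fl control macrophages, all without overlap between neighbours. HSC-KO ECs (3.11 CPM), control macrophages (3.09 CPM) and HSC-KO livers (2.97 CPM) overlapped. P3h2 went from HSC-KO macrophages through control and HSC-KO ECs to Smad4 cKO macrophages (5.81 CPM), each overlapping the next, then to the livers of both genotypes (2.08 CPM each) and the Smad4 fl/fl control macrophages (1.44 CPM), also overlapping. Slco2b1 was highest in HSC-KO macrophages (325 CPM), which overlapped control livers (221 CPM), and these overlapped HSC-KO livers (209.9 CPM). Smad4 cKO macrophages (145 CPM) followed below all livers. Folr2 was highest in both kinds of control macrophages (1957 and 1814 CPM, overlapping), followed by HSC-KO (77.2 CPM) and Smad4 cKO macrophages (70.1 CPM), which overlapped, and by control livers (14.1 CPM). F13a1 was highest in HSC-KO macrophages (31.8 CPM), with no overlap, while Smad4 cKO macrophages (3.87 CPM) overlapped HSC-KO livers (1.02 CPM).

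Likeness between genes was measured as the root mean square (RMS) difference between their centred profiles of log2(CPM + 1) over the 8 group means, among 11307 genes reaching 10 CPM in some group. F13a1 had the closest companions, but outside mutant macrophages its group means were 0.0161 to 1.02 CPM, where log2(CPM + 1) varies little. Ms4a14, a member of the Ms4a family of membrane proteins, differed by 0.16, and 4933424M12Rik (0.27), Galnt12 (0.39), the cytokine gene Osm (0.42) and H2-M2 (0.43) followed. For P3h2 they were Dennd2c (0.49), Adam19 (0.68), Gas6 (0.71), the membrane metalloprotease Mmp14 (0.74) and Spats2l (0.74), all higher in ECs than in control macrophages. For Folr2 the closest was Timd4, a phosphatidylserine receptor of resident macrophages (0.67), then Ccl24 (1.03), Cfp (1.12), Cd44 (1.15) and Ear2 (1.16).

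The other 2 genes had no near neighbour. For Cbr2 the closest were Ms4a4a (1.30), Sh2d1b1 (1.32) and the chemokine receptors Cx3cr1 (1.36), Ccr3 (1.57) and Ccr1 (1.67). For Slco2b1 they were Col14a1 (1.47), Reps2 (1.52), Rnase4 (1.55), Arsg (1.56) and Ang (1.60), all higher in livers than in control macrophages. The 5 genes were no closer to each other: the smallest difference was 1.61, between P3h2 and F13a1, and Folr2 differed from the others by 4.08 to 5.89. With a pseudocount of 0.1 the same companions remained among the closest 5 for 4 of 5 (Cbr2), 3 of 5 (P3h2), 3 of 5 (Slco2b1), 4 of 5 (Folr2) and 2 of 5 (F13a1).

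**Figure D4:**
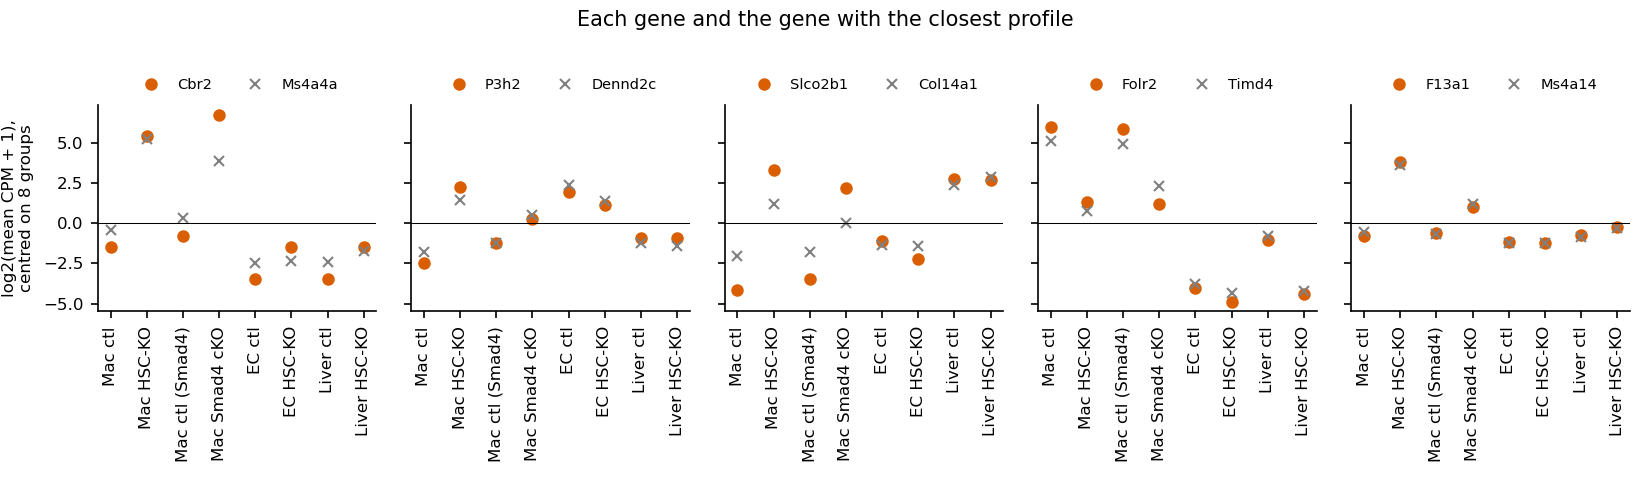
Profiles over the 8 groups of each gene (orange circles) and of the gene closest to it (grey crosses), as log2(mean CPM + 1) centred on the mean of the 8 groups. Ms4a14 nearly covers F13a1 (RMS difference 0.16), whereas Ms4a4a departs from Cbr2 in Smad4 cKO macrophages (1.30).

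The relatives of each gene were examined as lists. Among carbonyl and dicarbonyl reductases, the relatives of Cbr2, none of 19 rose and 5 fell in HSC-KO macrophages, and 1 rose and none fell in Smad4 cKO macrophages, where the median log2 fold changes were -0.37 and -0.29 (0.04 over all genes in both comparisons). Akr1c6, an aldo-keto reductase, fell by 3.71 (SE 0.33, adjusted p = 3.5e-04), Dhrs1 by 1.66 and the retinol dehydrogenase Rdh10 by 1.04 on the log2 scale, and Dhrs3, a retinaldehyde reductase, rose by 1.01 in Smad4 cKO macrophages (edgeR). Background shares of DEGs were 6.32% higher and 5.34% lower in the HSC-KO and 2.76% and 2.67% in the Smad4 comparison.

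Among the enzymes that modify collagen, the relatives of P3h2, 1 of 13 rose and 2 fell in HSC-KO macrophages, and 1 of 14 fell in Smad4 cKO macrophages. P3h3, its paralog, had 1.89 ± 0.486 CPM in controls and rose to 8.70 ± 0.710 CPM in HSC-KO macrophages (SD, n = 3), by 2.26 on the log2 scale (adjusted p = 0.0012, edgeR), while the lysyl hydroxylase Plod1 fell by 1.59 and the prolyl 4-hydroxylase subunit P4ha2 by 1.16 on the log2 scale. P3h4 fell by 1.84 in Smad4 cKO macrophages, from 1.84 to 0.512 CPM. In HSC-KO ECs 4 of 14 of these enzymes rose and 1 fell, where 7.68% of all genes rose and 6.01% fell. The 1 that fell was Crtap, a partner of prolyl 3-hydroxylase in collagen modification, by 1.12 (adjusted p = 0.0085, edgeR).

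Of the 11 Slco transporters besides Slco2b1, only 4 were detectable enough for a test in the HSC-KO macrophage comparison. Slco2a1, the prostaglandin transporter, fell from 18.2 ± 1.56 to 0.661 ± 0.797 CPM (mean ± SD of 3 libraries, log2 fold change -4.69, adjusted p = 0.0077, edgeR), and in Smad4 cKO macrophages it measured 24.4 CPM against 25.4 CPM in controls (adjusted p = 0.95, edgeR). It also fell in HSC-KO ECs, from 360.0 to 37.4 CPM. Control ECs held far more Slco2a1 than the macrophages. The endothelial signal was 3.76% to 13.5% of that of control ECs in the Smad4 libraries. In the HSC-KO set it was 0.421% to 2.10% in control and 0.367% to 0.788% in HSC-KO macrophages. Pan-endothelial markers summed there to 66.7 to 333 CPM and to 58.1 to 125 CPM. The part of the endothelial signal in the Slco2a1 values was not tested. Slco1b2, an uptake transporter of hepatocytes, fell in HSC-KO livers from 814 to 378 CPM (log2 fold change -1.05, adjusted p = 0.0098, edgeR), in the same livers where Slco2b1 was at 188 to 247 CPM.

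Of the folate genes, 1 of 18 rose and 4 fell in HSC-KO macrophages, and 1 rose and 1 fell in Smad4 cKO macrophages. The mitochondrial enzyme gene Mthfd1l rose in both (1.34 and 1.20, adjusted p = 0.028 and 0.020, edgeR), and Aldh1l1, a cytosolic folate dehydrogenase, fell in both, by 3.67 and by 1.53. Folr1, the paralog of Folr2, was far less abundant than it and fell from 1.95 to 0.0400 CPM in HSC-KO macrophages (adjusted p = 0.0062, edgeR). In HSC-KO ECs, 1 of 17 folate genes rose and 2 fell, where 7.68% of all genes rose and 6.01% fell. Folr1 fell from 6.18 to 0.251 CPM and the proton-coupled folate transporter gene Slc46a1 from 24.9 to 0.661 CPM, while Tyms, the thymidylate synthase gene, rose from 8.09 to 20.3 CPM.

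Of the transglutaminases and partners of factor XIII, 2 of 14 tested fell in HSC-KO macrophages. Tgm2, the tissue transglutaminase, fell from 1033 ± 219 to 248 ± 37.4 CPM (mean ± SD of 3 libraries, log2 fold change -1.99, adjusted p = 6.2e-04, edgeR) and Tgm1 by 1.37 on the log2 scale in HSC-KO macrophages. F13b, the carrier subunit of factor XIII, was a liver transcript (209 CPM in control livers, 229 CPM in those of HSC-KO mice) and was at 0.272 CPM in HSC-KO macrophages.

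Folr2 and F13a1 are widely used markers of resident macrophages of connective tissue, so 22 further genes used for such macrophages were examined, of which 21 were in the tables. In HSC-KO macrophages 6 of 21 rose and 8 fell (6.32% and 5.34% of all genes), and in Smad4 cKO macrophages 7 rose and 4 fell (2.76% and 2.67%). The median log2 fold changes were 0.21 and -0.28, and 0.04 over all genes in both comparisons. Fcrls, an Fc receptor-like gene, rose from 0.430 ± 0.323 to 365 ± 143 CPM in HSC-KO macrophages (mean ± SD of 3 libraries, log2 fold change 9.74, adjusted p = 9.0e-05, edgeR) and from 0.498 to 8.10 CPM in Smad4 cKO macrophages. The lectin gene Mgl2 (5.93 and 2.10), the scavenger receptor gene Stab1 (3.89 and 2.37), the chemokine gene Pf4 (3.70 and 2.44) and Gas6 (3.58 and 1.88) rose in both. Ccl24 (-4.24 and -2.88), the collectin gene Colec12 (-4.20 and -2.65) and the C-type lectin genes Cd209f (-3.28 and -4.58) and Cd209g (-2.97 and -5.34) fell in both with Folr2. Lyve1, the hyaluronan receptor used with Folr2 to mark such cells, fell by 3.07 in HSC-KO macrophages and had 84.8 ± 49.9 and 99.6 ± 38.2 CPM in control and Smad4 cKO macrophages (adjusted p = 0.85, edgeR). Lyve1 and Stab1 are also genes of sinusoidal ECs, at 579.5 and 1403 CPM in control ECs, and the endothelial signal was 3.76% to 13.5% of that of control ECs in the Smad4 libraries and 0.367% to 2.10% in the HSC-KO set. Its part in the values of these 2 genes was not tested.

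**Figure D5:**
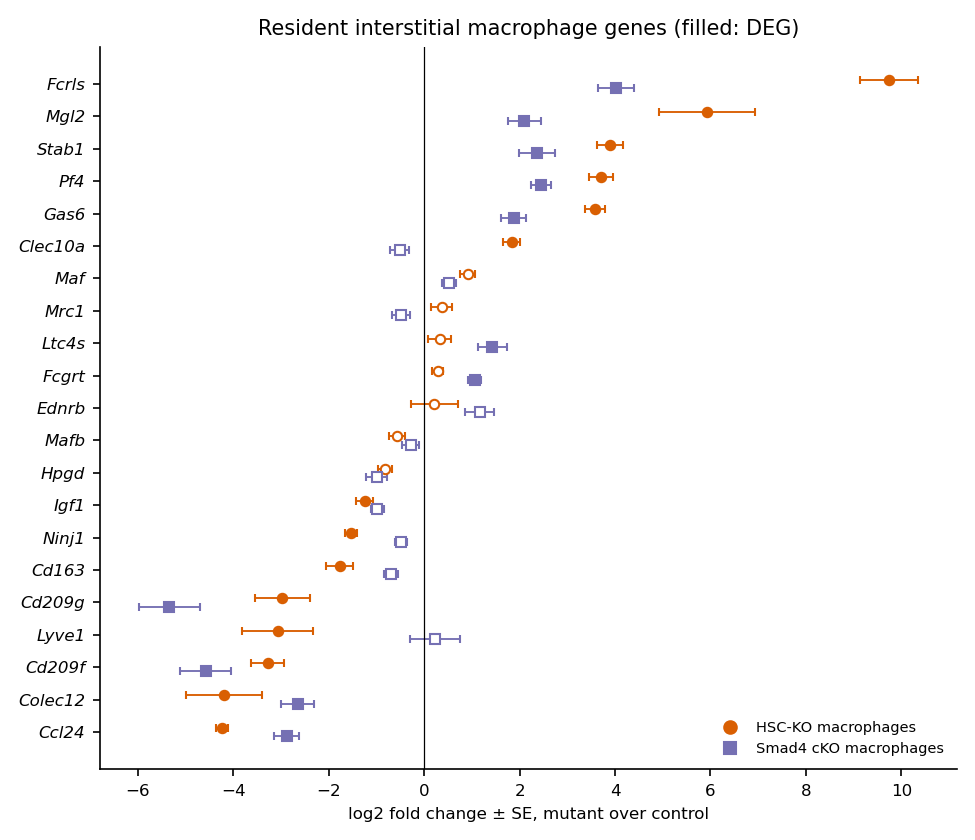
Log2 fold change ± SE of 21 resident interstitial macrophage genes in HSC-KO (orange circles) and Smad4 cKO macrophages (purple squares). Filled symbols met the DEG criterion and open ones did not. Fcrls, Mgl2, Stab1, Pf4 and Gas6 are higher in both mutants, and Ccl24, Colec12, Cd209f and Cd209g are lower in both.

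Antisense genes overlap the exons of 4 of the 5 genes (Gm4524 by 1055 bases at P3h2, Gm15635 by 471 and Gm34280 by 78 bases at Slco2b1, Gm10602 by 975 bases at Folr2, and Gm30489 by 74 bases at F13a1), and none overlaps Cbr2. As the use of strand in counting was not given in the sources used here, reads of the overlapping parts cannot be told apart. Gm34280 had 0 counts in all control macrophages of the HSC-KO set and 149, 195 and 250 counts in HSC-KO macrophages, and 1, 0 and 4 against 398, 272 and 223 counts in the Smad4 set. Slco2b1 itself had 23177 to 35059 and 13876 to 14900 counts in these mutant libraries. Gm10602 had 1917 to 3313 counts in control and 184 to 238 in HSC-KO macrophages, and was lower there together with Folr2.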

How the data were processed

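RNA was sequenced from sorted mouse liver macrophages, sorted ECs and whole livers, and each library was placed in its group from its label. The labels and the methods name different library kits. The authors checked reads with FastQC, aligned them to mm10 (GRCm38) with HISAT2 and used featureCounts. The deposited values, in 4 tables, are whole-number counts per gene with no normalization. Versions, annotation release, strand use and the treatment of multiply mapped reads are not given in the sources used here.

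In R 4.3.3, each comparison used its 6 libraries (12 for the EC against liver effect) in edgeR 4.0.16 with limma 3.58.1: filterByExpr (minimum count 10, minimum total 15), TMM factors, glmQLFit and glmQLFTest, Benjamini-Hochberg adjustment over all genes tested. Genes were called DEGs at an adjusted p under 0.05 with a change of over 1 on the log2 scale. The SE is the log2 fold change divided by the square root of F, and 95% intervals use the t quantile of its degrees of freedom. DESeq2 1.42.0, other scaling and filters, an Xist covariate, a replicate block and leaving out each replicate were alternatives. The fits were tested on simulated counts. Total counts of 60911527 to 110879155 per library put 3 counts at no more than 0.0534 CPM. Fold bounds set a group without counts to 3 counts a library and, in the absence of molecular identifiers, stand for counting error alone. The p-values measure the spread between libraries of separate samples. Exon lengths and coordinates came from GENCODE vM21, which held 46370 of 48574 symbols (95.5%), and promoters from RefSeq (Python 3.11.15, matplotlib 3.10.9). The members and the gene lists were chosen with earlier results of these data known. Named genes were the members, the 5 closest genes of each and, from each list and macrophage comparison, up to 3 DEGs with the largest rise and 3 with the largest fall at a mean log2 CPM of at least 0. Other genes named were chosen after their values were seen. One gene of the factor XIII list, and the counts that rest on it, are not reported here.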

Additional observations from a re-analysis of the deposited data

Results flagged for a closer look

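Slco2b1 moved in opposite directions in macrophages and ECs of HSC-KO mice, which only in part were the same animals. Every HSC-KO macrophage library lay above every control macrophage library, at a log2 fold change of 8.61 (SE 0.35), and every HSC-KO EC library lay below every control EC library, at -1.22 (SE 0.32). The difference between these effects was not tested, because the macrophage values served to choose the gene. Endothelial signal in the HSC-KO macrophage libraries was 0.367% to 0.788% of that of control ECs, and pan-macrophage markers summed to 6.64 to 9.09 CPM in HSC-KO ECs.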

How the results depend on the processing

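Over the alternatives, the macrophage log2 fold changes of the 5 genes kept their direction, as did Cbr2 in ECs and livers and Folr2 in livers, which also stayed past the threshold (adjusted p, edgeR or DESeq2, 5.8e-15 to 0.0069, 1.9e-13 to 0.033 and 5.7e-49 to 0.0089). Leaving out 1 library at a time gave 8.72 to 14.11 for P3h2 in HSC-KO and 5.88 to 7.01 for Slco2b1 in Smad4 cKO macrophages. In ECs it gave -1.70 to -0.60 for P3h2, -1.47 to -0.92 for Slco2b1 and -9.34 to -3.47 for Folr2 (adjusted p = 0.011 without EC HSC-KO replicate 1, edgeR). Slco2b1 in ECs also lost its call with library size alone (-0.93, adjusted p = 0.10, edgeR), and Folr2 in ECs gained one with DESeq2 (-4.52, adjusted p = 0.0015). In livers, changes near 0 turned sign: P3h2 measured -0.05 with library size alone, -0.08 with Xist as a covariate and -0.08 to 0.25 with a library left out, and Slco2b1 measured 0.05 with Xist and -0.16 to 0.09. For the EC against liver effect, leaving out a library gave -1.73 to -0.62 for P3h2, -1.42 to -0.87 for Slco2b1, -4.20 to 1.57 for Folr2 and -6.43 to 2.09 for F13a1, with calls for P3h2 without EC HSC-KO replicate 1 (adjusted p = 0.019, edgeR) and for Slco2b1 without EC control replicate 2 (adjusted p = 0.048, edgeR) or with DESeq2 (-1.18). The cause of these shifts was not tested.

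The number of DEGs was 951 in the Smad4 comparison and 566 to 909 with a library left out (566 without control replicate 3, 624 without Smad4 cKO replicate 1). In livers it was 425, and 814 with DESeq2, 271 with the replicate block and 188 to 451 with a library left out. For the EC against liver effect it was 1231, and 2008 with DESeq2. Of the group means, 195 of the recomputed values moved by less than the replicate SD and 5 by more, and of the list counts 530 stayed within 1.5 times and 82 did not.

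The replicate numbers did not pair the samples: same-numbered deviations correlated at -0.09 to 0.23 in the HSC-KO and -0.21 to 0.11 in the Smad4 macrophages, 0.00 to 0.21 in ECs and 0.04 to 0.16 in livers. With the replicate block, Slco2b1 in ECs was -1.19 (adjusted p = 0.061, edgeR), and no other call on the 5 genes changed. The Xist covariate could not be fitted in the Smad4 set, where Xist did not vary enough.

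With 3 libraries a group, F13a1 in ECs and livers and Folr2 in ECs rest on few counts, and their intervals are wide.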
